A study of Mus musculus with 12 samples.

Results

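Mitochondria make a small set of their own proteins, all of them subunits of the respiratory chain and ATP synthase, on a ribosome of their own. The RNA of that ribosome is encoded in mitochondrial DNA, whereas every protein of its large subunit (Mrpl genes) and of its small subunit (Mrps genes) is encoded in the nucleus, made in the cytosol and imported. Heart muscle depends heavily on oxidative metabolism, and inherited defects of several of these proteins cause cardiomyopathy in humans.

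The genes described here are all those whose probe sets carry a single symbol that starts with Mrpl or Mrps followed by a number, 76 of the 18194 genes measured, of which 47 belong to Mrpl and 29 to Mrps by symbol. They were measured in ventricles of mouse embryos at 14.5 days post coitum on 12 arrays made by Affymetrix. The left ventricle (LV) and the right ventricle (RV) were taken separately from wild-type embryos of strain CD1 (WT) and from Nos3-/- embryos of strain B6.129P2-Nos3tm1unc/J (KO), which carry 2 targeted alleles of the gene for endothelial nitric oxide synthase in every cell. Each of the 4 groups held 3 arrays, an array read the RNA of 15 to 30 embryos pooled, and p-values measure the spread between pools. Because every WT pool was CD1 and every KO pool was of the other strain, an effect of Nos3 and one of strain cannot be told apart in any comparison of genotypes.

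Values are log2 expression made by the authors with RMA. This method corrects background, brings the probe values of all arrays to one distribution and then summarises the probes of a set. The median of an array's summarised values still ran from 5.57 to 5.74. Each gene is given by the probe set with the highest mean over the 12 arrays. All 76 genes had a mean above 5.67, the median of all values, so that none was left out as dim. Differences are on the log2 scale, and a gene is said to have changed where the adjusted p of limma, Benjamini-Hochberg corrected over all 18194 genes, was under 0.05. A lower value in a ventricle can come from fewer cells that express a gene or from less RNA per cell, and bulk tissue does not tell these apart.

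The probe set of the targeted gene, Nos3, was lower in KO in both ventricles. Its values in LV were 8.36, 8.39 and 8.30 in WT against 7.95, 8.02 and 7.86 in KO, and in RV 8.72, 8.94 and 8.37 against 8.23, 8.04 and 7.77. It did not fall to background, and whether its probes lie outside the disrupted part was not tested. Unequal between arrays were also the 24 probe sets of poly-A control transcripts, bacterial RNAs that the standard labelling procedure adds to a sample. Their mean log2 value was 8.89 to 8.94 on the 3 WT LV arrays and 8.96 on WT RV replicate 3, and 7.35 to 8.47 on the other 8 arrays, among them all KO arrays. WT RV replicate 3 stood apart from its own group in the genes described here, so the results that rest on it are also given without it. Because that array was picked by its level in these genes, the results without it are descriptions. Defining markers of cardiomyocytes (10 of 10 measured, among them Myh6, Myl2 and Tnnt2) averaged 13.13 to 13.62 on every array.

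In the left ventricle, most mitochondrial ribosomal protein genes were lower in KO. Of the 76 genes, 60 fell (78.9%) and 0 rose, while of all genes 30.9% changed in the same comparison, 12.3% falling and 18.6% rising. The median difference of the 76 genes was -0.45, which puts KO at 73.0% of the WT level, and the median over all genes was -0.01. Differences were below 0 in 73 of the 76 genes. In 69 genes every KO LV array lay below every WT LV array, against 20.6% of all genes. Both subunits took part: 39 of 47 Mrpl genes fell, with a median of -0.45, and 21 of 29 Mrps genes fell, with a median of -0.48. Among the genes that fell the difference ran from -0.27 to -0.96. A fall of 0.5 or more was met by 33 members (43.4%) and by 5.12% of all genes, and one of 0.8 or more by 7 members (9.21%) and 1.31% of all genes. The count of 60 became 20 with the poly-A control level as a covariate and 0 with a term for the 4 arrays of highest control level, a term that in LV coincides with genotype.

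**Figure D1:**
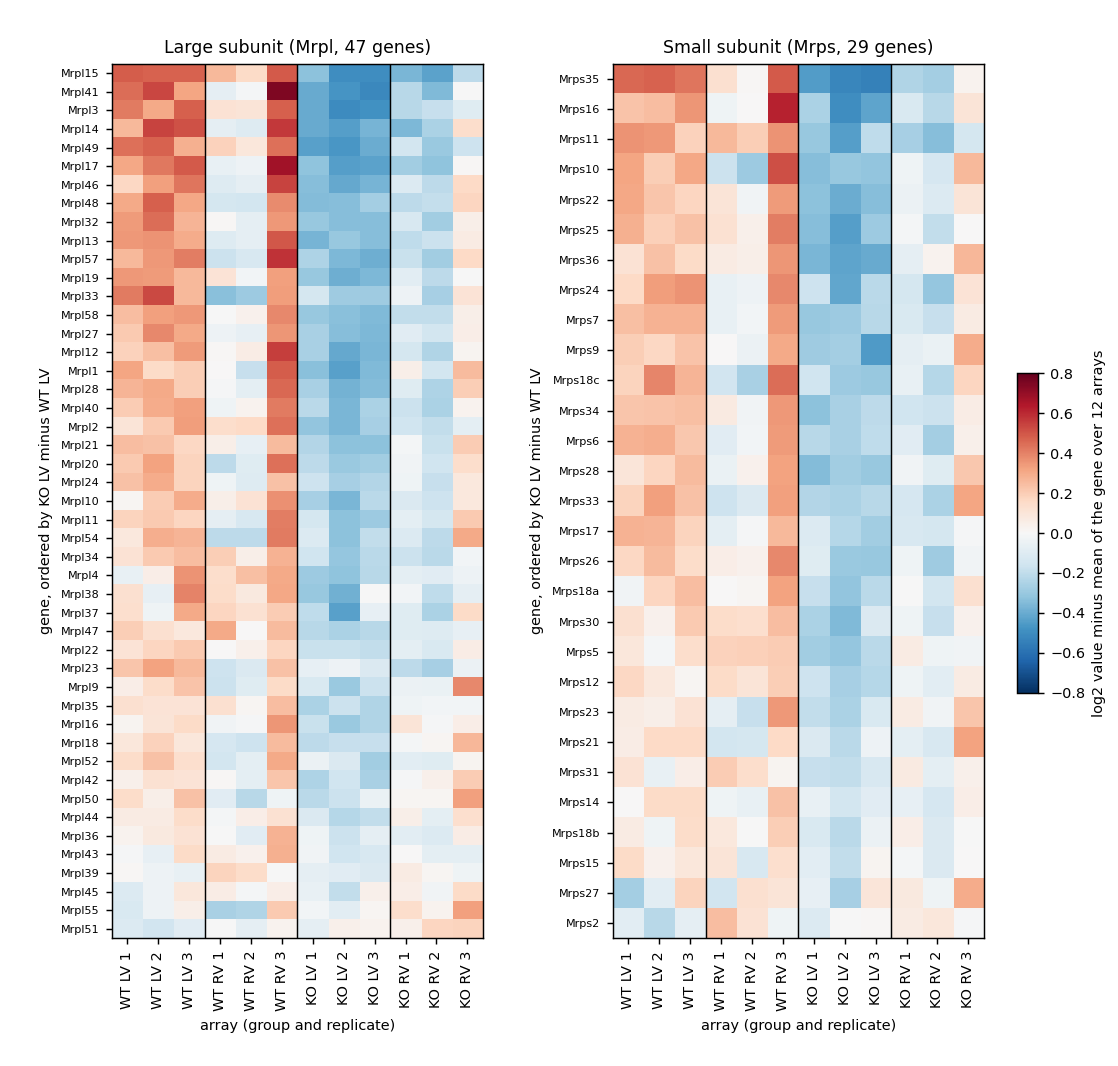
Log2 value of each of the 76 genes on each of the 12 arrays, after subtraction of the gene's own mean over the arrays (colour scale in log2 units). Rows are genes ordered by the KO minus WT difference in LV, with the large subunit in the left panel and the small subunit in the right panel, and columns are arrays. The 3 KO LV columns are blue for nearly all rows, and WT RV replicate 3 is the reddest column, being the highest of the 12 arrays in 49 genes.

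The mean over the 76 genes showed the same order of arrays. It was 10.79, 10.83 and 10.85 on the WT LV arrays and 10.40, 10.33 and 10.39 on the KO LV arrays, so that the groups were far apart and each was tight. On the WT RV arrays it was 10.63, 10.60 and 10.95, and on the KO RV arrays 10.55, 10.47 and 10.71, so that the RV groups overlapped. Both RV groups owed their width to replicate 3, which was the highest of its group in 70 genes for WT and in 67 genes for KO. The median SD of a member over the 3 arrays of a group was 0.07 in WT LV and 0.06 in KO LV, but 0.19 in WT RV and 0.13 in KO RV.

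**Figure D2:**
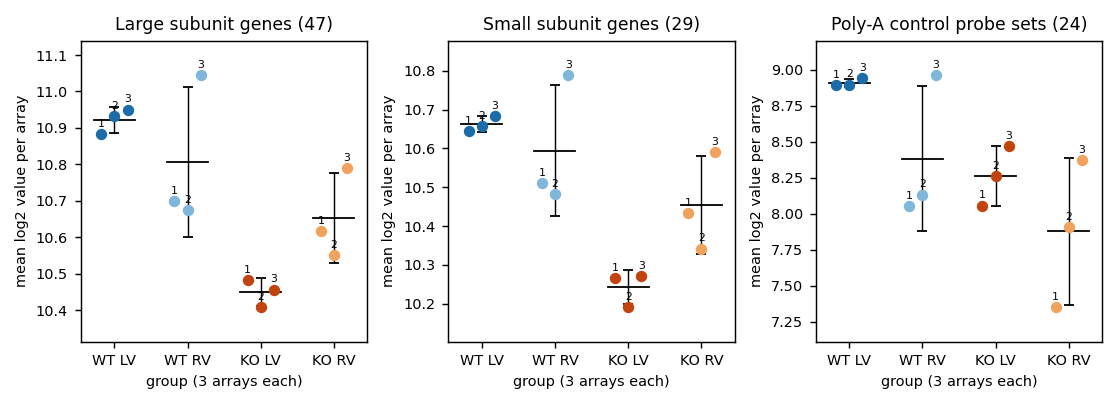
Mean log2 value per array of the 47 Mrpl genes (left panel), the 29 Mrps genes (middle panel) and the 24 poly-A control probe sets (right panel), with 1 point per array and its replicate number, the group mean as a horizontal line and the SD over 3 arrays as the error bar. WT LV and KO LV are separated in all 3 panels, and WT RV replicate 3 sits at the height of the WT LV arrays in the right panel (8.96 against 8.89 to 8.94); each panel has its own axis, which does not start at 0.

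Of the 7 genes with a fall of 0.8 or more in LV, 6 were Mrpl genes and 1 was Mrps35. Mrps35, a protein found only in mitochondrial small subunits, measured 11.47, 11.48 and 11.44 in WT LV and 10.56, 10.49 and 10.47 in KO LV. The groups did not overlap, and the difference of -0.96 (SE 0.118, limma adjusted p = 0.000105) puts KO at 51.5% of WT. Mrpl15, a large subunit protein with a bacterial counterpart, measured 12.27, 12.26 and 12.26 in WT LV and 11.46, 11.29 and 11.29 in KO LV, a difference of -0.92 (SE 0.10, limma adjusted p = 4.66e-05). All 8 probe sets of Mrpl15, the most of any member, were lower in KO LV. Mrpl41, a large subunit protein without a bacterial counterpart, measured 12.07, 12.16 and 11.94 in WT LV and 11.22, 11.15 and 11.11 in KO LV, a difference of -0.90 (SE 0.172). Mrpl14, a protein at the face of the large subunit that meets the small subunit, measured 10.19, 10.47 and 10.44 in WT LV and 9.53, 9.49 and 9.56 in KO LV, a difference of -0.84 (SE 0.167). Its partner in assembly, Malsu1, which binds Mrpl14 and keeps an unfinished large subunit from joining, also fell in LV by 0.61 (limma adjusted p = 0.00273).

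Of 4 members listed here because their human counterparts are mutated in cardiomyopathy, 3 fell in LV, near the share of all members (78.9%, with 12.3% of all genes). Mrpl3, a core protein of the large subunit, measured 11.65, 11.54 and 11.71 in WT LV and 10.83, 10.73 and 10.75 in KO LV, a difference of -0.86 (SE 0.103, limma adjusted p = 8.34e-05). Mrps22, a mitochondrion-specific protein of the small subunit, measured 10.66, 10.57 and 10.52 in WT LV and 10.02, 9.95 and 10.01 in KO LV, a difference of -0.59 (SE 0.10). Mrpl44, a large subunit protein with a ribonuclease-like fold, differed by -0.27 (SE 0.083, limma adjusted p = 0.0246), the smallest fall called among the 60. Mrps14, a small subunit protein with a bacterial counterpart, differed by -0.20 and did not pass (SE 0.096, limma adjusted p = 0.131), although its 3 KO LV values (11.30, 11.21 and 11.27) lay below its 3 WT LV values (11.36, 11.51 and 11.51).

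The stalk that recruits translation factors is built from Mrpl10 and Mrpl12, of which Mrpl12 also binds the mitochondrial RNA polymerase. Mrpl12 measured 12.36, 12.42 and 12.52 in WT LV and 11.92, 11.77 and 11.81 in KO LV, a difference of -0.60 (SE 0.128, limma adjusted p = 0.00353). Mrpl10 differed by -0.45 (SE 0.109, limma adjusted p = 0.00691), again without overlap. Mrps12, at the decoding centre, differed by -0.31 (SE 0.080, limma adjusted p = 0.0108), and Mrps5, a protein of the small subunit that lies near the messenger RNA entrance, by -0.34 (SE 0.077, limma adjusted p = 0.00514). Mrpl45, which holds the large subunit to the inner membrane, did not pass: its values were 10.38, 10.45 and 10.58 in WT LV and 10.43, 10.29 and 10.53 in KO LV, which overlap. Its difference was -0.05 (SE 0.091, limma adjusted p = 0.698).

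The 3 paralogues of the S18 protein, of which Mrps18a sits in the large subunit despite its symbol and the other two in the small subunit, gave different values. Mrps18c differed by -0.53 (SE 0.157, limma adjusted p = 0.0205) and Mrps18a by -0.37 (SE 0.110, limma adjusted p = 0.0213), and both fell. Mrps18b differed by -0.19 and did not pass (SE 0.090, limma adjusted p = 0.131). Whether the paralogues differ from one another was not tested. Mrps36, whose protein is now assigned to the 2-oxoglutarate dehydrogenase complex and not to the ribosome, fell like the others, with 11.19, 11.31 and 11.23 in WT LV against 10.71, 10.65 and 10.67 in KO LV and a difference of -0.57 (SE 0.106, limma adjusted p = 0.00156).

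The 16 genes that did not pass in LV were Mrpl9, Mrpl36, Mrpl39, Mrpl43, Mrpl45, Mrpl51, Mrpl54 and Mrpl55 of the large subunit and Mrps2, Mrps14, Mrps15, Mrps18b, Mrps21, Mrps23, Mrps27 and Mrps31 of the small subunit. Their differences ran from -0.43 for Mrpl54 to 0.12 for Mrpl51. Mrpl9 missed the threshold narrowly, with -0.34 (limma adjusted p = 0.0512). Mrpl51 was the 1 member whose KO LV values all lay above its WT LV values, with 12.02, 12.13 and 12.12 against 11.98, 11.94 and 12.00, and its difference did not pass (limma adjusted p = 0.285).

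Other probe sets of the same genes mostly ran the same way. Of the 76 genes, 42 had more than 1 probe set, and 60 further probe sets in 33 genes had a mean above 5.67. In LV 52 of the 60 had the sign of the probe set used and 7, in 6 genes, the opposite sign, and their median difference was -0.29. Among genes that fell, the opposite sign was seen in 1 further probe set each of Mrpl3 (0.17), Mrpl19 (0.02), Mrpl47 (0.03) and Mrps5 (0.35) and in 2 of Mrpl35 (0.04 and 0.09). The second-brightest probe set of Mrpl3 differed by -0.88, close to the one used, whereas that of Mrpl49 differed by -0.21 against -0.83. For these genes the size of the fall, and for the dimmer sets its sign, depends on the probe set that is read. Mrpl30 and Mrpl53 are read only by probe sets that carry a second symbol and are therefore not among the 76. Those sets differed by -0.30 and -0.15 (with Gm6238) and by -0.62 (with Ccdc142).

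Several features of the arrays and the tissue moved together with the LV difference. The poly-A control level was higher on all 3 WT LV arrays than on any KO LV array. With that level as a covariate, chosen after seeing the data, 20 of the 76 genes fell and 0 rose (4.3% of all genes fell and 9.71% rose) with a median of -0.31, and Mrpl15 (-0.80), Mrps35 (-0.75), Mrpl49 (-0.74) and Mrpl3 (-0.71) remained called. With a term that sets the 4 arrays of highest control level apart (the 3 WT LV arrays and WT RV replicate 3), also chosen after seeing the data, 0 genes passed the limma fit, 0.346% of all genes fell and 0.737% rose, the median was -0.13 and 57 of the 76 differences were below 0. At that split no array of KO shares a level with WT LV, so that the term is set by the WT RV arrays alone, and in LV the control level and the genotype cannot be told apart. Macrophage and leukocyte markers (4 of 4 measured) averaged 6.70 to 6.92 in WT LV and 7.78 to 8.09 in KO LV, and endothelial markers (5 of 5) 8.22 to 8.70 and 8.97 to 9.26. Erythroid markers (3 of 5 measured, with Hba-a1 at 3.85 to 4.37) averaged 7.11 to 7.61 in WT LV and 6.51 to 6.85 in KO LV, and liver markers (4 of 4) 7.52 to 9.46 and 6.03 to 7.31. Of the erythroid markers, Alas2 was lower in KO LV (8.69 to 9.63 and 7.73 to 8.17), while Slc4a1 (8.47 to 8.82 and 7.94 to 8.51) and Hba-a1 overlapped. Fibroblast and cushion markers averaged 11.56 to 11.9 in WT LV and 12.0 to 12.19 in KO LV, and skeletal muscle markers 7.49 to 8.04 and 6.90 to 7.38. Of the former, Col1a1 (9.43 to 10.11 and 10.89 to 11.23) and Postn (11.09 to 11.56 and 11.58 to 11.95) were higher in KO LV, while Col3a1 and Dcn overlapped. The skeletal muscle average mixes unlike levels, with Myod1 at 4.06 to 4.49 and Ckm at 11.04 to 12.64 over the 12 arrays. It is therefore not read as an amount of skeletal muscle. Cardiomyocyte markers averaged higher in KO LV (13.44 to 13.54) than in WT LV (13.13 to 13.16), with Myh6 at 13.25 to 13.55 against 11.28 to 11.88. Not all took part: Nkx2-5 lay between 9.14 and 9.46 in both. Myl2 lay between 15.01 and 15.04 in both, close to the highest value of any probe set. Myl3 and Actc1, which also enter the average, lay near that end too. Whether a difference can still be seen at such levels was not tested, so the flat values of Myl2 are not read as a lack of change. The hybridisation controls averaged 11.56 to 11.70 in WT LV and 11.33 to 11.41 in KO LV. The 3' minus 5' difference of the Gapdh probe sets, a measure of RNA integrity, was 0.36 to 0.40 and 0.24 to 0.32. That of the actin probe sets was 1.13 to 1.20 and 1.01 to 1.18, which overlap. The median of an array's values was 5.69 to 5.74 in WT LV and 5.57 to 5.66 in KO LV. With the arrays median-centred, 44 of the 76 genes fell and 0 rose, with a median of -0.36. Over all genes, 1212 fell and 4282 rose in that fit. The part of these features in the fall of the 76 genes was not tested.

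In the right ventricle the genotype difference of the same genes was smaller. Of the 76 genes, 5 fell (6.58%) and 0 rose, and of all genes 8.19% changed, with 3.58% falling and 4.61% rising. The median difference was -0.15, or 89.9% of the WT level, against -0.04 over all genes, and 64 differences were below 0. With the poly-A control level as a covariate the RV median was -0.03, and with the 4-array term it was -0.04. In RV the 4-array term acts as leaving out WT RV replicate 3 does. Every KO RV array lay below every WT RV array in 16 genes, where 17.6% of all genes were so separated, and above in Mrpl50 and Mrpl51, where 11.8% were. The genes that fell in RV had all fallen in LV, and 55 genes were called in LV but not in RV. Such a count does not test whether the ventricles differ, and by sign 63 of the 76 genes were lower in KO in both. The LV and RV comparisons share no array, and across the 76 genes their differences correlated with r = 0.65, a description over genes that share arrays and RNA within each comparison. Markers of other cell types differed in RV too. Macrophage markers averaged 6.69 to 6.92 in WT RV and 7.18 to 7.38 in KO RV, erythroid markers 7.10 to 7.35 and 6.45 to 6.67, and cardiomyocyte markers 13.22 to 13.49 and 13.53 to 13.62. Of the macrophage and erythroid markers, Cd68 and Hba-a1 overlapped. The skeletal muscle average was 7.6 to 7.88 and 7.24 to 7.38, with Mylpf overlapping. Here too it is not read as an amount of skeletal muscle. The cardiomyocyte markers did not shift as a whole. Myh6 was at 11.83 to 12.58 in WT RV and 13.46 to 13.80 in KO RV. Nkx2-5 ran the other way (9.26 to 9.48 and 9.03 to 9.11), and Myh7 and Actn2 overlapped. Replicate 3 had the highest 3' minus 5' difference of its group. For Gapdh it was 0.36 against 0.25 and 0.18 in WT RV, and 0.44 against 0.24 and 0.17 in KO RV. For actin it was 1.24 against 1.12 and 1.14 in WT RV, and 1.38 against 1.15 and 1.09 in KO RV. The part of the markers and of RNA integrity in the RV differences was not tested.

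The 5 genes that fell in RV were Mrpl15, Mrps11, Mrpl49, Mrpl3 and Mrpl2. Mrpl15 measured 12.05, 11.94 and 12.28 in WT RV and 11.42, 11.36 and 11.58 in KO RV, without overlap, and its difference of -0.64 (SE 0.10, limma adjusted p = 0.00162) puts KO at 64.3% of WT. Mrps11, a protein of the platform of the small subunit, measured 9.60, 9.54 and 9.70 in WT RV and 9.08, 9.0 and 9.20 in KO RV, a difference of -0.52 (SE 0.094, limma adjusted p = 0.00416). Its difference in LV was -0.61. Mrpl49, a mitochondrion-specific protein of the large subunit, differed by -0.44 (SE 0.099, limma adjusted p = 0.0148). Mrpl3 measured 11.35, 11.34 and 11.71 in WT RV and 11.01, 11.05 and 11.14 in KO RV, a difference of -0.40 (SE 0.103, limma adjusted p = 0.0297). Mrpl2, which lies close to the catalytic centre of the large subunit, measured 11.23, 11.25 and 11.53 in WT RV and 10.93, 10.89 and 11.01 in KO RV, a difference of -0.39 (SE 0.097, limma adjusted p = 0.024). Of 18 alternatives, Mrpl15 kept its call in 18, Mrps11 in 17, Mrpl49 in 14, Mrpl2 in 9 (limma adjusted p up to 0.125) and Mrpl3 in 7, where its difference came down to -0.14 (limma adjusted p up to 0.302).

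Most of the genes set out above had small differences in RV. None of Mrpl44 (-0.02), Mrps22 (-0.16), Mrps14 (-0.10), Mrps5 (-0.19), Mrpl10 (-0.24), Mrpl12 (-0.33), Mrps12 (-0.17), Mrpl45 (0.03), Mrps18a (-0.12), Mrps18b (-0.11), Mrps18c (-0.05) and Mrps36 (-0.08) passed in RV. Mrps35, the largest fall in LV, differed by -0.37 (SE 0.118, limma adjusted p = 0.0685). With the replicate number as a block, 7 genes fell and 0 rose in RV (5.19% and 5.85% of all genes), the 5 above with Mrps35 (limma adjusted p = 0.0463) and Mrpl34 (-0.31, limma adjusted p = 0.0311). Without WT RV replicate 3 the median was -0.04, 3 genes fell (Mrpl15, -0.54, Mrps11, -0.48, and Mrpl49, -0.34; 2.26% of all genes) and Mrpl55 rose (0.42, limma adjusted p = 0.0291; 3.06% of all genes).

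**Figure D3:**
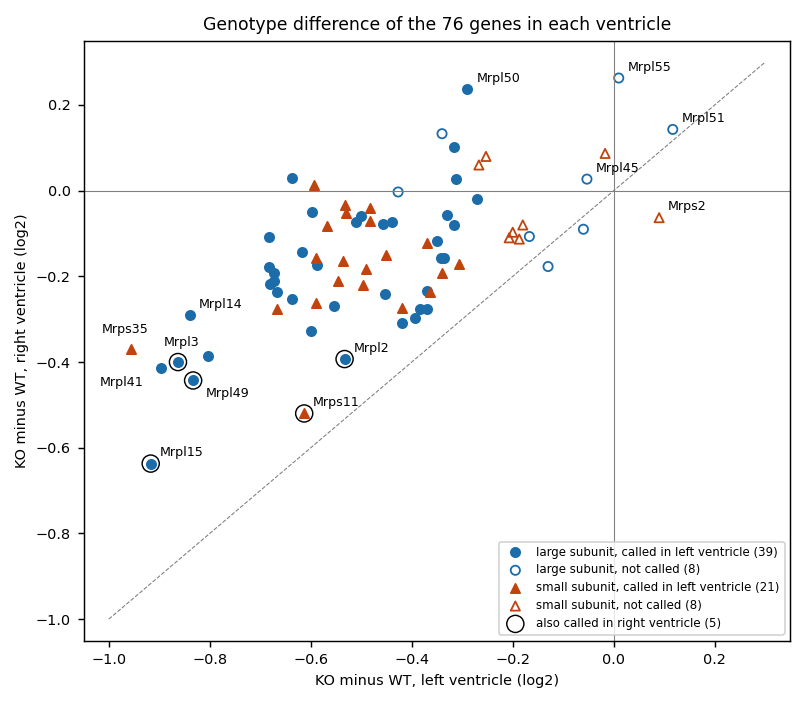
KO minus WT difference (log2) of each of the 76 genes in LV (x axis) and RV (y axis), with 1 point per gene, circles for Mrpl and triangles for Mrps. Filled points fell in LV, ringed points also fell in RV, solid lines mark 0 and the dashed line marks equal differences. Nearly all points lie above the dashed line, 73 of 76, since the LV difference was the more negative.

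Whether the genotype difference itself differed between ventricles was tested by the interaction, written as the difference in RV minus that in LV. It was above 0 in 73 of 76 genes with a median of 0.33, while over all genes 7137 were above and 11031 below 0 and the median was -0.06. With the term for the 4 arrays of highest poly-A control level the members' median was 0.07. In the limma fit 0 of the 76 genes passed (0.022% of all genes did), and 29 had an unadjusted p under 0.05, all of them above 0, against 4.79% of all genes with such a p and a difference above 0. The largest values were those of Mrpl33 (0.67, SE 0.221), Mrps10 (0.61, SE 0.236) and Mrps35 (0.59, SE 0.166), each with a limma adjusted p of 0.314. The count depends on WT RV replicate 3. Without that array 34 of the 76 genes passed, all above 0 (2.74% of all genes passed above 0 and 4.45% below), with a median of 0.44, led by Mrpl33 (0.88, limma adjusted p = 0.0232) and Mrps10 (0.86, limma adjusted p = 0.0222). The array was picked for its high level in these same genes, so its removal raises their interaction, and the count is a description. Without it the highest poly-A control levels are also confined to WT LV. Mrpl33, a small protein of the large subunit, measured 11.03 and 11.07 on WT RV replicates 1 and 2 but 11.70 on replicate 3, near the WT LV values of 11.78, 11.89 and 11.62.

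The comparison of ventricles within a genotype gives the other view of the same 12 arrays. In WT, 0 of 76 genes passed in the limma fit (0.984% of all genes did, 0.764% higher and 0.22% lower in RV), and 6 had an unadjusted p under 0.05 (17.1% of all genes). Of the 76 differences 57 were below 0 in RV relative to LV, with a median of -0.10, while over all genes 11112 were above and 7029 below 0 and the median was 0.05. The members' median was 0.04 with the poly-A covariate and 0.13 with the 4-array term, so that its direction depends on that choice. All WT RV arrays lay above all WT LV arrays in Mrpl51, Mrps2 and Mrps5 (10.9% of all genes) and below them in Mrpl50 (4.85% of all genes). Without WT RV replicate 3, 16 genes were lower in RV (3.11% of all genes), among them Mrpl33 (-0.71), Mrpl14 (-0.52) and Mrps10 (-0.51), and Mrps2 was higher (0.31; 6.43% of all genes), with a median of -0.22. These values are a description, since that array was picked for its high level in these genes and its removal lowers WT RV there. In KO, 75 of 76 differences were above 0 with a median of 0.21, and in 45 genes every KO RV array lay above every KO LV array (9.24% of all genes). That median was 0.13 without KO RV replicate 3, the highest array of its group in 67 genes. In the limma fit of all 12 arrays, again 0 of the 76 passed (1.14% of all genes did, 0.55% higher and 0.594% lower). In that fit 23 had an unadjusted p under 0.05, all higher in RV, against 4.56% of all genes. Mrps36 came closest, with 11.00, 11.10 and 11.34 in KO RV against 10.71, 10.65 and 10.67 in KO LV, a difference of 0.47 (SE 0.106, limma adjusted p = 0.0507). With the replicate block it alone passed (limma adjusted p = 0.0327; 0.791% of all genes were higher and 0.874% lower), and with the poly-A control level as a covariate 6 genes passed, Mrps36, Mrps9, Mrps35, Mrps28, Mrpl18 and Mrpl42 (0.973% of all genes were higher and 0.616% lower). Mrpl23 (-0.10) was the 1 gene lower in KO RV than in KO LV. Macrophage markers averaged 7.78 to 8.09 in KO LV and 7.18 to 7.38 in KO RV. Atrial markers averaged 10.57 to 10.86 in KO LV and 11.16 to 11.39 in KO RV, though Nr2f2 among them overlapped. In WT the atrial average was 10.38 to 10.69 in LV and 10.97 to 11.29 in RV. Cardiomyocyte and endothelial averages overlapped between the KO ventricles. The part of these markers in the ventricle differences was not tested.

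**Figure D4:**
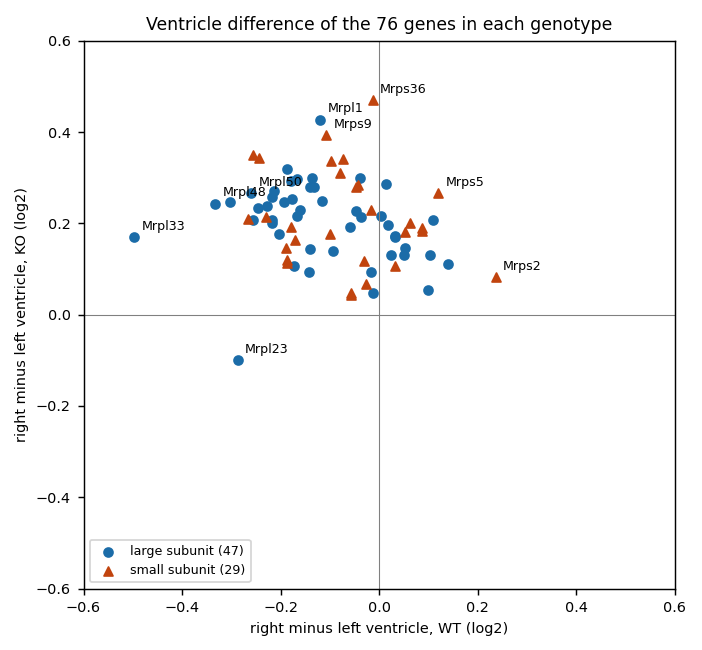
Right minus left ventricle difference (log2) of each of the 76 genes in WT (x axis) and in KO (y axis), with circles for Mrpl and triangles for Mrps. In KO 75 of 76 genes lie above 0, while in WT 57 lie below 0, although the WT median is above 0 with the poly-A covariate (0.04) and the 4-array term (0.13); none of the differences plotted passed the limma threshold.

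Genes that act with the mitochondrial ribosome are given here as lists, beside 12.3% of all genes that fell and 18.6% that rose in LV. Of 25 measured assembly factors 11 fell and 2 rose, with a median of -0.33. Ngrn and Fastkd2, both needed for the large ribosomal RNA, fell by 0.86 and by 0.73, and Grsf1, a protein of mitochondrial RNA granules (0.34), and Rbfa, which matures the small subunit (0.33), rose. Of 11 translation factors 2 fell, Mtif3 of initiation (-0.53) and Mrrf of ribosome recycling (-0.52), and 0 rose. Of 19 genes for charging mitochondrial transfer RNAs 5 fell, led by Hars2 (-0.58) and Gatb (-0.56), and 0 rose. Of 15 genes of mitochondrial transcription and its regulators 4 fell and 4 rose. The elongation factor Tefm (-0.87) and the nuclear receptor Esrra (-0.57) fell, and the coactivator Pprc1 (0.50) and the RNA-binding Lrpprc (0.40) rose. Among 4 measured ribosomal proteins with other symbols, Chchd1 (-0.47) and Ptcd3 (-0.38) of the small subunit fell. Gadd45gip1 of the large subunit rose in LV (0.87, limma adjusted p = 0.00138) and in RV (1.20, limma adjusted p = 0.000421), against the direction of the 76 genes.

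The respiratory chain, in part the product of this ribosome, and the cytosolic ribosome offer reference lists. Of 90 genes with respiratory chain symbols 44 (48.9%) fell in LV and 0 rose, with a median of -0.25, led by Cox7a1 (-1.25) and Cox7c (-1.20), subunits of cytochrome c oxidase. Of 47 cytosolic ribosomal protein symbols 9 (19.1%) fell and 0 rose, against 12.3% and 18.6% of all genes, with a median of -0.13, led by Rpl12 (-1.28) and Rps25 (-0.89). These medians stand beside -0.45 for the 76 genes, and their difference was not tested. In RV the medians were -0.10 for assembly factors, -0.07 for the respiratory chain and -0.04 for cytosolic ribosomal proteins, beside -0.04 over all genes. Of the assembly factors Mettl17 (-0.62), Ngrn (-0.52), Mrm1 (-0.42) and Mrm3 (-0.36) fell in RV and Rbfa (0.26) rose, and of the translation factors Mtif2 (0.55) and Mtfmt (0.30) rose. Cox8b (-0.74) and Sdhc (-0.72) fell in RV, and Rpl37 (0.49) and Rps4l (0.40) rose.

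**Figure D5:**
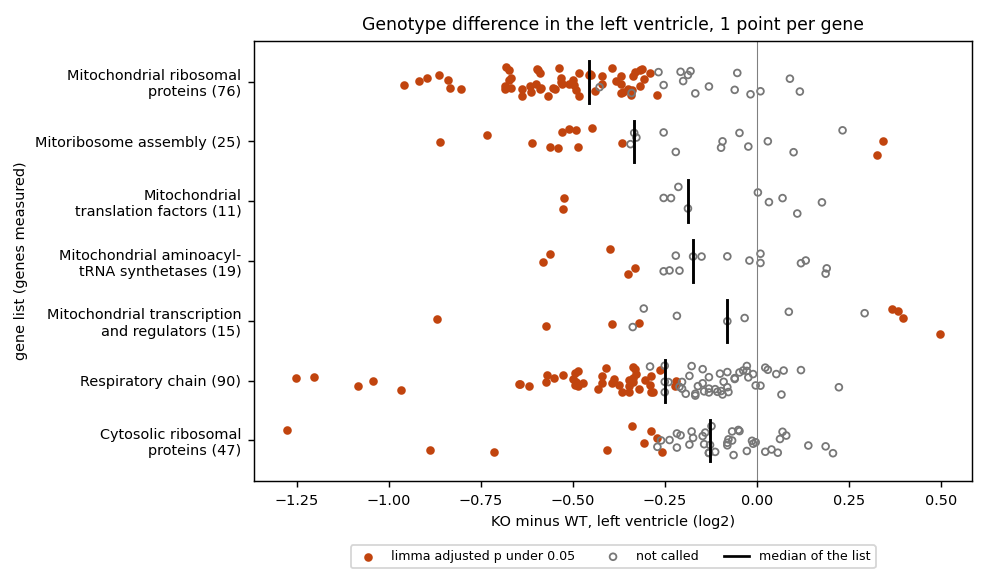
KO minus WT difference in LV (log2) of each gene of 7 lists, with 1 point per gene, filled where limma's adjusted p was under 0.05, and a vertical bar at the median of the list. The 76 mitochondrial ribosomal protein genes centre on -0.45, the 90 respiratory chain genes on -0.25 and the 47 cytosolic ribosomal protein genes on -0.13; the vertical position of points within a list carries no value.

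Promoter stretches of 6 of the genes are shown, all of which fell in LV, so that their letters can be compared. RefSeq windows of 300 bases (build GRCm38.p6), from 250 before to 50 after the start, were found for 67 of the 76 genes. The stretches printed here lie before the start and belong to genes that fell in both ventricles (Mrpl3, Mrpl2, Mrpl49 and Mrps11; the fifth such gene is Mrpl15) or to genes described above whose stretch holds the motif CCGGAAG (Mrps22 and Mrps18a). This motif, set in capitals, is a core of the sites bound by GABPA and other ETS factors. Mrps22 and Mrps18a were picked for the motif and did not pass in RV. How often it occurs among the printed stretches is therefore set by that choice, and most stretches of the other genes described above lack it.

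Mrpl3, chr9:105053168-105053267, plus strand: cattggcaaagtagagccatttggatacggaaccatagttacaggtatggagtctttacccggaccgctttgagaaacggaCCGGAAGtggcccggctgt

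Mrps22, chr9:98601680-98601779, minus strand: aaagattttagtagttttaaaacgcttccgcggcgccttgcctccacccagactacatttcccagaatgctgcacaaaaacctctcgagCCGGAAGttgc

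Mrps18a, chr17:46110904-46111003, plus strand: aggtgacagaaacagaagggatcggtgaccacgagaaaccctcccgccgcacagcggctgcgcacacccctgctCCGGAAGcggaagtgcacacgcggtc

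Mrpl2, chr17:46646121-46646220, plus strand: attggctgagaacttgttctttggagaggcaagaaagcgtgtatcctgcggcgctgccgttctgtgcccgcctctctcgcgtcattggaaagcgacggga

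Mrpl49, chr19:6057756-6057855, minus strand: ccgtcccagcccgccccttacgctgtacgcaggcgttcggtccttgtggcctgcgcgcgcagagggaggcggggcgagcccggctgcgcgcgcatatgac

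Mrps11, chr7:78783090-78783130, plus strand, the 41 bases between its start and that of Mrpl46: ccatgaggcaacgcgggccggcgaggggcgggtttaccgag

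The 5 motifs were searched on both strands of the whole window, and a match is a description of letters. CCGGAAG was found in 25 of 67 members (37.3%) and in 15.0% of the 14453 array genes with a window. AAGATGGC, a core of YY1 sites, was found in 12 of 67 (17.9%) and in 4.07% of array genes, and among the genes shown it lies in the windows of Mrps18a, Mrpl49 and Mrps11, outside the printed stretch. GCGCATGC, part of the NRF1 site, was found in 8 members (11.9%) and 4.68% of array genes, the same letters followed by GC, the full site, in 3 members (4.48%) and 1.75%, and TATAAA in 5 members (7.46%) and 11.5%. Median GC content of the windows was 58.0% in members and 52.8% in all 27025 genes with a window, those not on the array included. CCGGAAG was held by 19 of the 52 genes with a window that fell in LV and by 6 of the 15 that did not pass. Of the factors named, Gabpa was higher in KO LV (0.38, limma adjusted p = 0.0243), and Nrf1 (-0.31, limma adjusted p = 0.0799) and Yy1 (-0.03, limma adjusted p = 0.81) did not pass.

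Many of these genes share a start region with a gene on the other strand. A divergent neighbour within 1000 bases was found for 25 of 67 members (37.3%) and for 12.2% of all 27025 genes with a window. The latter include genes that the array does not measure, and the share among array genes alone was not computed. Mrps11 and Mrpl46 face each other with starts 42 bases apart, and both fell in LV, by 0.61 and by 0.68. The 23 neighbours that are no members did not follow as a group: 3 fell (Ndufb5, Helq and Ptcd2), 2 rose (Ncapd2 and 2610507I01Rik) and 18 did not pass, with a median of -0.06. Of all genes 12.3% fell and 18.6% rose in LV. Mrpl14 and Tmem63b, whose starts lie 131 bases apart, differed by -0.84 and by 0.21, and Mrpl41 and Pnpla7, at 935 bases, by -0.90 and by 0.13, where neither neighbour passed.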

How the data were processed

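RNA of pooled ventricles was extracted with a column kit, and 100 ng was turned into biotinylated cRNA for the arrays, as the labels' protocols say. Log2 values of 45101 probe sets were made by the authors with RMA (no version given), per the submitters' processing notes; the scale follows from RMA and from values of 2.42 to 15.19. A shift common to most genes is not seen after RMA. The genome build behind the probe sets is not given in the sources used here, scanner files were not used here, and precision is limited by 3 arrays per group. In the platform annotation, 34958 probe sets carry 1 symbol, 932 carry several and 9211 carry none; only the first kind named a gene, and 34754 of them matched RefSeq by gene ID, where 0 symbols changed. The table had 0 unused columns of per-sample values.

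Differences were fitted with limma 3.58.1 (lmFit and eBayes, R 4.3.3) in 1 model of 4 group means that share 1 variance estimate per gene; p-values were adjusted by Benjamini-Hochberg over 18194 genes, the threshold was 0.05, and the fit was tested on simulated data. Figures and sequence searches used Python 3.11.15 and matplotlib 3.10.9. Same-numbered WT RV and KO RV arrays deviated together (correlations of 0.111, 0.262 and 0.306), as did KO LV and KO RV (0.21, 0.291 and 0.265), so the replicate number may mark a shared preparation; the labels do not say. The members, lists, tests and alternatives were chosen with earlier results of these data known. Named in each comparison were the 5 largest rises and falls among members called, the members of known role listed in the report, up to 2 called genes per direction of each related list, and called members with a probe set of opposite sign. Members named beside these, Mrpl9, Mrpl23, Mrpl33, Mrpl34, Mrpl50, Mrpl51, Mrpl54, Mrpl55, Mrps2 and Mrps10 among them, and the markers, motifs and neighbours' members, were chosen after their values were seen.

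Other settings were leaving out dim genes, median centring, quantile normalization once more, array weights, robust variances with an intensity trend, the replicate block, the mean of the probe sets, a threshold of 0.01, the compared groups alone, poly-A control terms, and leaving out each array. The poly-A term at the widest gap set apart KO RV replicate 1 alone, so it acts as leaving out that array does.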

Additional observations from a re-analysis of the deposited data

Results flagged for a closer look

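Mrpl50, a protein of the large subunit, was picked out because its genotype difference ran in opposite directions in the ventricles without overlap of the groups. Its values in LV were 9.63, 9.53 and 9.72 in WT and 9.27, 9.31 and 9.43 in KO, and it fell (-0.29, limma adjusted p = 0.0447). In RV they were 9.39, 9.26 and 9.45 in WT and 9.50, 9.50 and 9.81 in KO, all KO values above all WT values, and the difference of 0.24 did not pass (limma adjusted p = 0.163). The difference between the ventricles, RV minus LV, was 0.527 (SE 0.144), given as a description since the gene was picked for this pattern. Its other probe set, of nearly the same mean level (9.32 against 9.48), differed by -0.56 in LV and by -0.01 in RV, so that the rise in RV is seen in 1 of 2 probe sets. With the poly-A control level as a covariate the LV difference was -0.14 and did not pass (limma adjusted p = 0.43).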

How the results depend on the processing

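In LV, 48 to 54 of the 76 genes were called when 1 array was left out, with medians of -0.49 to -0.44 and 4064 to 5091 genes called over all genes, and 42 to 64 under the alternatives other than the added poly-A terms. Among the latter, the poly-A term at the widest gap (57 called) sets apart KO RV replicate 1 alone. It therefore does not adjust the LV comparison for the control level. With the poly-A covariate, the count was 20, the median -0.31 and the count over all genes 2549; with the 4-array term they were 0, -0.13 and 197. At a threshold of 0.01, 3093 genes were called over all genes. The split of all genes in LV, 3378 higher and 2239 lower, became 4282 and 1212 with median centring and 2878 and 2838 with quantile normalization once more. In RV the count of 5 became 2 (threshold 0.01 and the compared groups alone), 3 (median centring, the mean of probe sets, the poly-A term at the widest gap and the covariate), 8 (quantile normalization) and 9 (array weights), and 2 to 8 without 1 array, with medians of -0.20 to -0.04 there and -0.03 with the covariate. Over all genes the RV count of 1490 became 533 (threshold 0.01), 2858 (array weights), 928 (the compared groups alone), 762 (widest gap), 803 (covariate) and 967 (4-array term), and 762 to 1813 without 1 array.

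The interaction gave 0 to 34 members and medians of 0.26 to 0.44 without 1 array, 25 members with array weights and a median of 0.07 with the 4-array term. Over all genes it gave 4, then 2 (threshold 0.01, quantile normalization, the replicate block, the mean of probe sets and the widest gap), 1 (4-array term), 1364 (array weights) and 2 to 1309 without 1 array. In WT, right minus left gave 0 to 17 members and medians of -0.22 to -0.03 without 1 array and 12 members with array weights, and its median turned to 0.04 with the covariate and to 0.13 with the 4-array term. Over all genes 179 became 60 (threshold 0.01), 2212 (array weights), 41 (the compared groups alone), 72 (covariate), 34 (4-array term) and 62 to 1734 without 1 array. In KO, 0 members were called without 1 array, with medians of 0.13 to 0.27; 1 was called with dim genes left out, quantile normalization, the intensity trend, the replicate block, the mean of probe sets, the compared groups alone and the 4-array term, 6 with the covariate and 7 with array weights. Over all genes 208 became 93 (threshold 0.01), 684 (array weights), 314 (the compared groups alone), 113 (widest gap), 321 (4-array term) and 104 to 134 without 1 array. The cause of these changes was not tested.

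With the replicate block, 62 members were called in LV, 7 in RV, 0 in the interaction, 0 for WT and 1 for KO. WT LV and KO LV share a number with correlations of 0.011, 0.144 and 0.423, and WT LV and WT RV of 0.231, -0.008 and 0.145. Of 1379 values of named members under an alternative, 1236 kept their direction and side of the threshold, 62 lost and 22 gained the call, and 59 changed sign. Of these 59, 1 was a called value, Mrps18c in LV (0.13 with the 4-array term), and 58 were differences that had not passed, 31 of them right minus left in WT.

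Sign changes with the 4-array term were, beside that, Mrps14 in LV (0.08), Mrpl44 (0.01), Mrps18c (0.16) and Mrps36 (0.02) in RV, Mrps14 (-0.08), Mrpl12 (-0.07) and Mrps18b (-0.03) in the interaction, and in WT right minus left Mrpl3 (0.08), Mrpl44 (0.03), Mrps22 (0.11), Mrps14 (0.13), Mrpl12 (0.30), Mrps18a (0.19), Mrps18c (0.17) and Mrps36 (0.19). With the covariate they were Mrpl44 (0.02), Mrps14 (0.00), Mrps18c (0.15) and Mrps36 (0.07) in RV, and in WT Mrpl44 (0.01), Mrps22 (0.02), Mrps14 (0.05), Mrpl12 (0.12), Mrps18a (0.10) and Mrps36 (0.15). Median centring turned Mrpl45 in LV (0.04), Mrpl44 in RV (0.02) and in WT Mrps18a and Mrps36 (0.02 each). The mean of probe sets turned Mrpl44 in RV (0.03), Mrps5 in the interaction (-0.08) and Mrps14 in KO (-0.01), array weights Mrps18c in RV (0.10) and Mrpl10 in WT (-0.02), and quantile normalization Mrpl45 in RV (-0.01) and Mrpl10 in WT (-0.02). Without 1 array, values on both sides of 0 were given by Mrpl45 in LV (-0.11 to 0.01), in RV by Mrpl44 (-0.07 to 0.03), Mrpl45 (-0.02 to 0.07), Mrps18c (-0.19 to 0.17) and Mrps36 (-0.18 to 0.02), in WT by Mrpl10 (-0.09 to 0.07), Mrpl12 (-0.22 to 0.05), Mrps18a (-0.12 to 0.04), Mrps18b (-0.02 to 0.08) and Mrps36 (-0.11 to 0.04), and in KO by Mrps14 (-0.01 to 0.09).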
